A study of Mus musculus with 19 samples.

Results

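Amyotrophic lateral sclerosis (ALS) is a fatal loss of motor neurons. A set of genes mutated in or tied to the disease was followed here in mouse tissue and cells. The tissue was labelled as lacking miR-146a or not, and the cells were given an inhibitor of it or a control. The 33 genes, all but Sod1 of an ALS list, were found by symbol among 55487 genes in the tables, and all 33 passed the filter on low counts in both comparisons. They were set in 4 groups by role: 8 RNA-binding proteins, 10 genes of autophagy and protein quality control, 6 genes of axonal transport and the cytoskeleton, and 9 with other roles. Whole spinal cords gave 9 libraries with the genotype miR-146a KO and 4 with miR-146a WT, called knockout and wild-type cords. Cultured motor neurons of wild-type genotype, made with retinoic acid and the Smoothened agonist SAG from RW.4, a single mouse embryonic stem cell line, gave 3 libraries after miR-146a LNA and 3 after control LNA. An LNA is a chemically locked oligonucleotide that pairs with a microRNA and blocks it. Both LNAs were given at 10 nM for 72 h with Lipofectamine 2000, so the controls were transfected too. The allele behind the knockout, and the age, sex, strain, litter and batch of the animals, are not given in the labels. Nothing in the labels ties each library to its own animal or culture, so a p-value here reflects the spread among libraries, which may be technical.

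ALS genes meet in a few processes of the motor neuron. RNA-binding proteins such as the product of Tardbp leave the nucleus and aggregate in most patients, autophagy and the proteasome clear such aggregates, and kinesin and dynein motors carry cargo along axons that are among the longest cell processes in the body. miR-146a is a microRNA induced by inflammation that lowers Irak1 and Traf6, and through them NF-kB signalling. A microRNA pairs through its seed, bases 2 to 8, with sites in the 3′ untranslated region (UTR) of a messenger RNA.

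The sequences of miR-146a, of its near copy miR-146b, and of the places in ALS genes that could pair with their shared seed are shown first, because the LNA was directed at miR-146a and the knockout at its gene. The miR-146b gene lies on another chromosome, and the labels name no change to it. In the mature microRNAs (RefSeq, GRCm38.p6), capitals mark the seed; miR-146a-5p lies at chr11:43374435-43374456 on the minus strand and miR-146b-5p at chr19:46342790-46342811 on the plus strand.
mmu-miR-146a-5p: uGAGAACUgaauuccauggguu
mmu-miR-146b-5p: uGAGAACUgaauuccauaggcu
The complement of the seed, AGTTCTC, was searched on the sense strand of the 3′ UTR of 1 transcript per gene (GENCODE M21, GRCm38). It was found once each in 5 of the 33 genes (15.2%): Tardbp, Matr3, Tia1, Vapb and Erbb4. Of all tested genes with such a UTR, 11% held it in the cord comparison and 11.3% in the culture comparison. In the 4 sites printed below, capitals mark the match.
Tardbp, chr4:148616980-148617002, minus strand: caaagaagggtggaAGTTCTCat
Tia1, chr6:86430783-86430805, plus strand: gtgcaaagtctagaAGTTCTCta
Vapb, chr2:173784211-173784233, plus strand: agccattcacccagAGTTCTCac
Erbb4, chr1:68032380-68032402, minus strand: aggctttttgaggtAGTTCTCaa
The match in Tardbp, Vapb and Erbb4 is followed by an A and that in Tia1 by a T. The UTRs that hold a match are long, from 3038 bases in Tia1 to 7855 in Erbb4, against a median of 709 over the 33 genes. A match in this window is a description of the letters and does not show that the microRNA acts there.

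Total counts ran from 28163289 to 39577247 in the 13 cord libraries and from 40647549 to 65471742 in the 6 culture libraries. The precursor of miR-146a, Mir146, had 1 count over the 9 knockout cords and 0 in every other group, so it checks no label. Among the cords, 2 libraries stood apart. The library labelled knockout replicate 9 had Sod1 at 1947 normalised CPM (counts per 1000000 reads of a library, scaled by TMM, the trimmed mean of M-values), against 269 ± 6.54 (SD, n = 4) in wild-type cords, and Pttg1, a gene beside Mir146, at 13, near the 14.9 to 17.4 of wild-type cords and far from the knockout median of 1.53; at Pttg1 it goes against its label. Knockout replicate 7 had 5 skeletal muscle markers at a summed 7030.1 TPM (transcripts per 1000000), where no other cord was above 15.5, and 4 fibroblast markers at 870.4 TPM. Each of these libraries was the highest cord at 8 of the 33 ALS genes, and replicates 7 and 9 were the lowest at 8 and 9. Over all tested genes, replicate 7 was highest at 20.8% and lowest at 19%, and replicate 9 at 23.1% and 18.3%.

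The cultures matched their label at motor neuron markers. Summed TPM of 6 motor neuron markers was 4516 to 4629 in control cultures and 4449.6 to 4867 after miR-146a LNA, against 284 to 359 in wild-type cords. Prph made up most of that sum (mean 2968 TPM in control cultures), with Chat at 72.3. General neuron markers were mixed. Rbfox3 (26.8 and 120.4 TPM) and Snap25 (241 and 947) had lower means in control cultures than in wild-type cords, and Syt1, Nefl and Nefm had higher means. The 5 astrocyte markers summed to at most 10.1 TPM and the 5 microglia markers to at most 0.528 TPM in any culture, with Aqp4 at 0 in all control cultures and P2ry12 at 0 after miR-146a LNA. A cord holds all of these cells, and in such bulk RNA fewer cells of a type and less RNA per cell cannot be told apart.

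ALS genes spanned a wide range of levels. On the TPM scale, which corrects for gene length, the heavy chain of kinesin-1, Kif5a, led in wild-type cords at 1003 ± 125 TPM (SD, n = 4). The autophagy receptor Sqstm1 followed at 465 ± 6.61, and neither range touched that of its neighbours in the order. Next came Tuba4a, an alpha-tubulin, at 362 ± 24.4 and Dctn1, the large dynactin subunit, at 343 ± 16.6, whose ranges overlapped. The lowest were the ribonuclease gene Ang at 2.80 ± 0.806 and Ccnf, the F-box subunit of a ubiquitin ligase, at 1.02 ± 0.177. Of the neighbours in this order, 21 overlapped in range.

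The order differed in motor neurons. In control cultures Sqstm1 led at 1205 ± 21.5 TPM (SD, n = 3), ahead of Stmn2, a regulator of axonal microtubules, at 1118 ± 34.0 and Kif5a at 869 ± 8.83. The ATPase Vcp, which extracts ubiquitinated proteins, stood at 612 ± 7.44, and the endosomal sorting subunit Chmp2b at 462 ± 17.6. At the bottom were Erbb4, a neuregulin receptor, at 0.293 ± 0.0892 and Anxa11, an annexin that links RNA granules to lysosomes, at 0.223 ± 0.119, the latter from 41 counts over 3 libraries. Here 11 neighbours overlapped in range.

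Comparing the means without a test, since the materials differ in RNA content, 23 of the 33 genes were higher in control cultures than in wild-type cords and 10 were lower. Chmp2b was 8.52 times as high in cultures, Ccnf 7.5, the kinase gene Nek1 6.41, Stmn2 6.07 and the nuclear RNA-binding protein Matr3 5.91. In the other direction Erbb4 was 51.1 times as high in cords, Anxa11 25.1, Tuba4a 8.08, the RNA-binding protein Taf15 3.23, the proteasome shuttle Ubqln2 3.06 and the mitochondrial gene Chchd10 2.74. RNA-binding genes were higher in cultures at 7 of 8 and autophagy genes at 9 of 10, while transport genes were higher at 2 of 6. The ranges overlapped for 3 genes, Atxn2, Kif5a and Dctn1. No such counts were made over all genes, so these shares cannot be called particular to ALS genes or to a role.

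**Figure D1:**
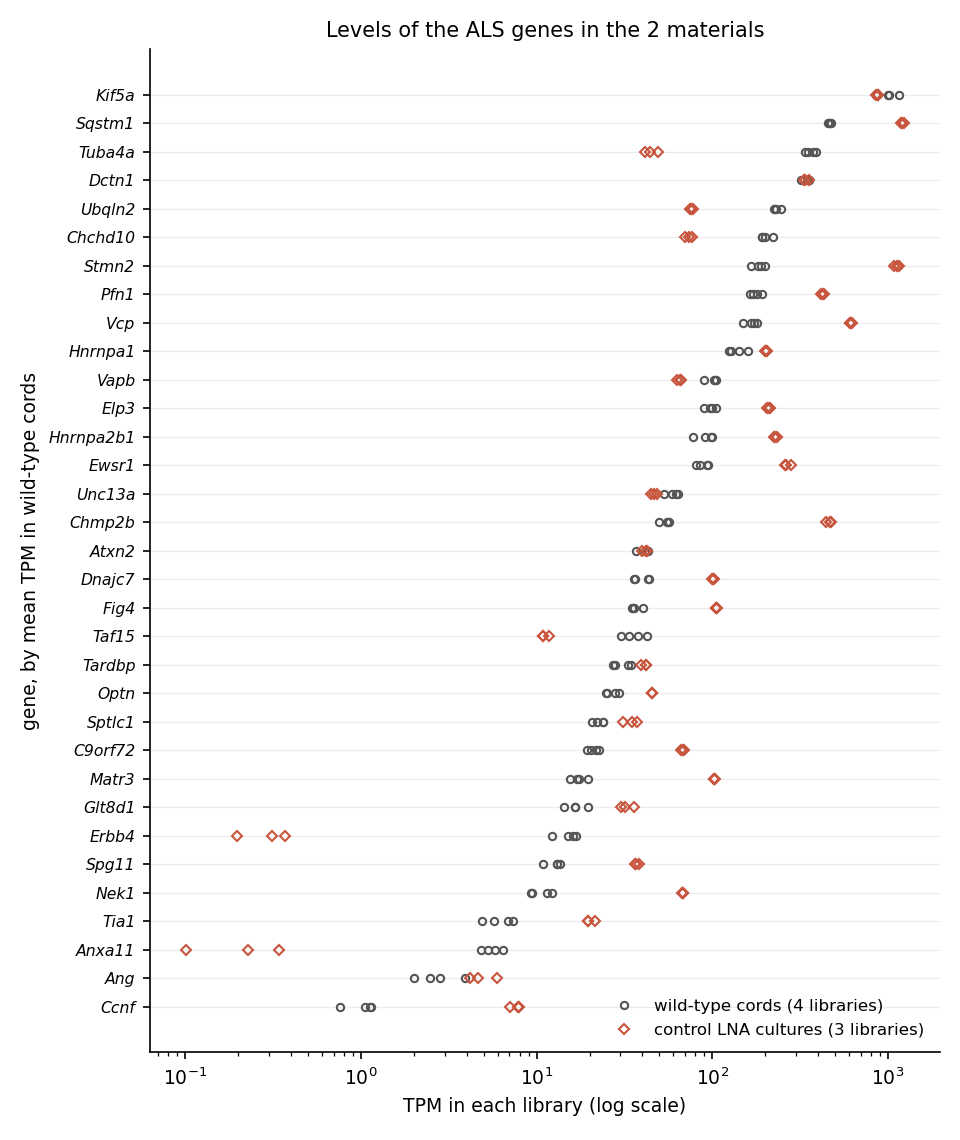
TPM of the 33 ALS genes in each of 4 wild-type cords (circles) and 3 control LNA cultures (diamonds), on a log axis, genes ordered by their mean in wild-type cords. Kif5a, Dctn1 and Atxn2 overlap between the materials, while Erbb4 and Anxa11 are over 25 times as high in cords.

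The knockout comparison asked how these genes stand in cords labelled miR-146a KO. No ALS gene passed the edgeR quasi-likelihood test with Benjamini-Hochberg adjustment (threshold 0.05) between knockout and wild-type cords: 0 of 33 did, and 0.0% of all 22174 tested genes. Before adjustment, 7 of 33 had a p below 0.05, with Ang higher in knockout cords and Tuba4a, Kif5a, Dctn1, Fig4, C9orf72 and Vapb lower, where 14.3% of all genes had such a p (7.53% higher, 6.8% lower). Without knockout replicates 7 and 9 the count was 6, with 1 higher and 5 lower. In that fit 1929 of all 21573 genes were higher and 1297 lower at such a p. DESeq2 called 1 of 33, Ang, and 1.72% of all genes. Limma with quality weights called 0 of 33 and 0.0135% of all genes.

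The genes of axonal transport and the cytoskeleton held 3 of the 6 lower values. The 4 wild-type cords had Tuba4a at 435, 475, 408 and 424 normalised CPM, and in knockout cords the lowest, median and highest were 276, 355 and 399. On this scale all 9 knockout cords lay below all 4 wild-type cords, with the library labelled knockout replicate 9 lowest. The log2 fold change was −0.28 (SE 0.09, edgeR adjusted p = 0.292, DESeq2 0.0770, limma 0.0810), and −0.23 (SE 0.06, edgeR adjusted p = 0.148) without replicates 7 and 9. Tuba4a overlaps Stk16 on the other strand, which had 41.8 ± 3.63 (SD, n = 4) and 38.8 ± 1.52 normalised CPM (SD, n = 9). The strand setting of the counting is not given, so reads of the 2 genes cannot be told apart with certainty.

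Kif5a, the motor of anterograde transport, had 2207, 2309, 2546 and 2033 normalised CPM in wild-type cords and a lowest, median and highest of 1712, 1950 and 2188 in knockout cords. The groups overlapped, with 5 of 9 knockout cords below every wild-type cord. Its log2 fold change was −0.21 (SE 0.07, edgeR adjusted p = 0.292). Dctn1, which binds dynein for retrograde transport, was below all wild-type cords in 9 of 9 knockout cords, at 602 to 704 normalised CPM against 708 to 760.2, with a log2 fold change of −0.12 (SE 0.05, edgeR adjusted p = 0.318). Tuba4a and Dctn1 were the 2 of 33 ALS genes whose groups did not overlap in normalised CPM. In TPM, which is not scaled by TMM, both overlapped: Tuba4a was at 335 to 388 in wild-type and 265 to 338 in knockout cords, and Dctn1 at 319 to 355 and 304 to 342. Over all tested genes, 1.3% had groups that did not overlap and 0.798% did so with the knockout lower.

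The other transport genes had means within or near the wild-type spread. The log2 fold change of Stmn2 was −0.09 (SE 0.12), with 2 knockout cords above and 6 below all wild-type cords. The actin-binding profilin gene Pfn1 (0.18, SE 0.19) and Anxa11 (0.16, SE 0.20) were each far higher in knockout replicate 7 than elsewhere. In that library, which carried the muscle and fibroblast markers, Pfn1 was at 267 normalised CPM against a knockout median of 139 and wild-type values of 124 to 152. Anxa11 was at 15.6 there, against a knockout median of 7.84 and wild-type values of 6.33 to 9.11. The part of the muscle and fibroblast RNA in these values was not tested.

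**Figure D2:**
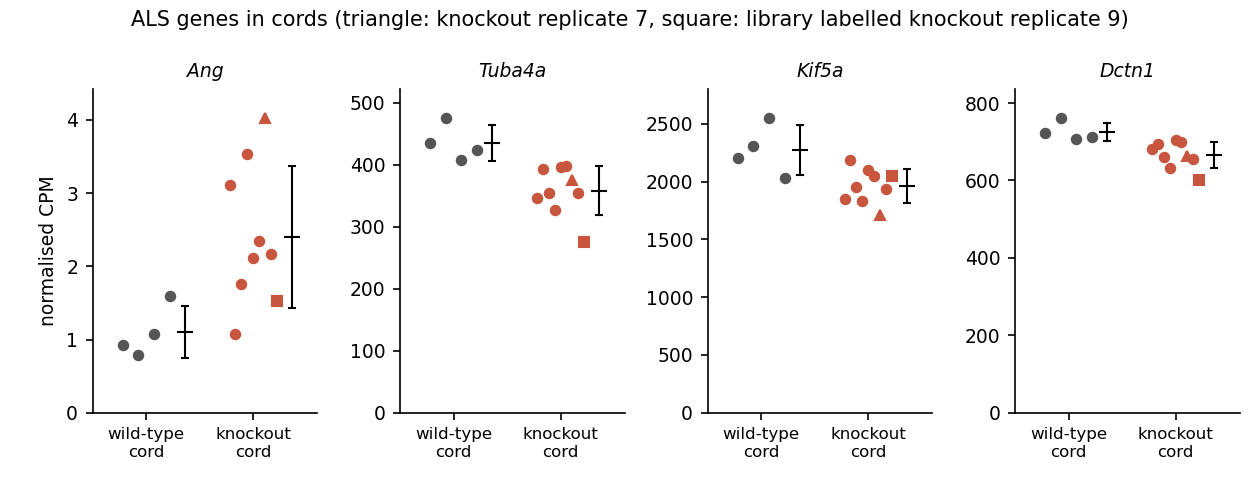
Normalised CPM of Ang, Tuba4a, Kif5a and Dctn1 in 4 wild-type and 9 knockout cords, 1 point per library, with the mean and SD beside each group; the triangle is knockout replicate 7 and the square the library labelled knockout replicate 9. On this scale Tuba4a and Dctn1 do not overlap between groups, and Ang is above all wild-type cords in 7 of 9 knockout cords.

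Of the 10 autophagy and quality control genes, 8 had a log2 fold change below 0, with a median of −0.085, beside 46.9% of all tested genes below 0 and a median of 0.017. None passed. Fig4, a phosphoinositide phosphatase of endosomes and lysosomes, was at 36.5 to 41.5 normalised CPM in wild-type and 31.3 to 37.8 in knockout cords, with 8 of 9 knockout cords below every wild-type cord (log2 −0.16, SE 0.06, edgeR adjusted p = 0.292). C9orf72, whose repeat expansion is the most frequent known genetic cause of ALS and whose product acts in endolysosomal trafficking, was at 29.3 to 34.2 and 25.5 to 31.5 (log2 −0.17, SE 0.07, edgeR adjusted p = 0.308). The remaining values were −0.11 for Chmp2b, −0.09 for Sqstm1 and for Ubqln2, −0.08 for the co-chaperone Dnajc7, −0.05 for Vcp, −0.01 for the autophagy receptor Optn, 0.16 for the lysosomal gene Spg11 and 0.18 for Ccnf. Ccnf was highest in knockout replicate 7, at 5.03 normalised CPM against a knockout median of 2.80 and wild-type values of 1.96 to 3.01. The sign at Optn turned to 0.02 when libraries were scaled by total count alone, which left 7 of 10 below 0.

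The 8 RNA-binding genes had the narrowest range of the 4 groups. Their log2 fold changes ran from −0.07 to 0.11 with a median of 0.007, 3 of 8 were below 0, and none reached an unadjusted p of 0.05. Single libraries set these signs: 6 of 8 were below 0 without wild-type replicate 2 (median −0.046), and 2 of 8 without wild-type replicate 3 (median 0.044) or knockout replicate 7 (median 0.021). Tardbp was at 80.5, 70.6, 84.6 and 74.4 normalised CPM in wild-type cords and at a lowest, median and highest of 66.9, 77.2 and 91.8 in knockout cords. The groups overlapped, the highest value was that of the library labelled knockout replicate 9, and the log2 fold change was 0.00 (SE 0.07) with that library and −0.03 (SE 0.06) without it. Tia1, a stress granule protein, was at 33.8, 25.4, 36.4 and 31.0 in wild-type cords and at 21.8, 32.4 and 54.7 (lowest, median, highest) in knockout cords, the last again in replicate 9, and its log2 fold change went from 0.07 (SE 0.18) to −0.05 (SE 0.12) without that library. Ewsr1, of the same family as Taf15, was lowest in knockout replicate 7 at 139 (knockout median 168, wild-type 158 to 176), and Hnrnpa2b1, a splicing and transport factor, was lowest among wild-type cords in replicate 2 at 169 (wild-type median 203, knockout 168 to 222). The log2 fold changes of the rest were 0.11 for Taf15, 0.08 for Matr3, 0.01 for Hnrnpa2b1, −0.01 for Hnrnpa1, −0.05 for Ewsr1 and −0.07 for Atxn2, a regulator of messenger RNA stability.

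Ang was the ALS gene with the largest difference in cords and the smallest p. It encodes angiogenin, a secreted ribonuclease that cleaves transfer RNA under stress. It stood at 0.932, 0.794, 1.07 and 1.6 normalised CPM in wild-type cords, from 148 counts in all, and at a lowest, median and highest of 1.07, 2.17 and 4.02 in knockout cords. In 7 of 9 knockout cords Ang was above every wild-type cord, while replicate 2 (1.07) and the library labelled replicate 9 (1.53) fell inside the wild-type range. The log2 fold change was 1.13 (SE 0.33, edgeR adjusted p = 0.292, limma 0.0941) and passed with DESeq2 alone (1.14, adjusted p = 0.0448). Without replicates 7 and 9 it was 1.07 (SE 0.29, edgeR adjusted p = 0.158).

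Ang shares its strand and region with Rnase4 (Ang, chromosome 14, 51091150 to 51102009, plus strand), another ribonuclease of the same family. The counts are of uniquely aligned reads, and how a read lying in both genes was counted was not checked here. Reads of these 2 genes therefore cannot be told apart with certainty. Rnase4 stood at 8.33 ± 1.01 normalised CPM (SD, n = 4) and 16.7 ± 7.21 (SD, n = 9), a log2 fold change of 1.01 (SE 0.34, edgeR adjusted p = 0.292, DESeq2 0.0474). Activated microglia markers were higher beside Ang: all 5 had a positive log2 fold change, and their summed TPM was 128 to 168 in wild-type and 122 to 685 in knockout cords. It was 683, 685 and 329 in replicates 7, 4 and 1, where Ang was highest, and 122 in replicate 2, where Ang was lowest. Replicates 3 and 5 went the other way. Their sums of 157 and 165 lay inside the wild-type range, while Ang (1.76 and 2.11 normalised CPM) was above every wild-type cord. The 5 astrocyte markers summed to 1695 to 2609 TPM in wild-type and 1835 to 6018 in knockout cords. The 5 general microglia markers summed to 123 to 158 and 119 to 469. Among knockout cords, both sums were also highest in replicates 7, 4 and 1 and lowest in replicate 2. Astrocyte markers were at 6018, 4527 and 5173 in replicates 7, 4 and 1 and at 1835 in replicate 2, and microglia markers at 469, 359 and 374 and at 119. The library labelled replicate 9 had astrocyte markers at 3639 TPM, above every wild-type cord, with Ang inside the wild-type range. Gfap carried most of the astrocyte difference (mean 1163 TPM in wild-type and 2478 in knockout cords). Gja1 was at 109 and 107, and 1 of the 5 astrocyte log2 fold changes was below 0. Spp1 made up most of the activated microglia sum (144 and 254 TPM). Red blood cell markers also differed, at 57.4 to 106 TPM against 92.6 to 1758. The part of any of these cell types in the Ang values was not tested.

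The remaining genes of other roles gave no call in cords. Vapb, an endoplasmic reticulum protein at membrane contact sites, was at 218 to 245 normalised CPM in wild-type and 191 to 227 in knockout cords (log2 −0.13, SE 0.06, edgeR adjusted p = 0.327). Nek1, which acts in DNA repair and at cilia, and Erbb4 were each highest in the library labelled knockout replicate 9. That library had Nek1 at 48.5 normalised CPM (knockout median 27.1, wild-type 24.6 to 30.3) and Erbb4 at 89.7 (knockout median 61.6, wild-type 51.6 to 65.9). Their log2 fold changes were 0.09 (SE 0.16) and 0.07 (SE 0.12) with it, and −0.04 (SE 0.08) and −0.00 (SE 0.08) without it. The rest were −0.18 for Chchd10, −0.14 for the vesicle priming gene Unc13a, −0.12 for Elp3, the catalytic subunit of the Elongator complex, −0.04 for the glycosyltransferase Glt8d1 and 0.11 for Sptlc1, a subunit of the first enzyme of sphingolipid synthesis.

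**Figure D3:**
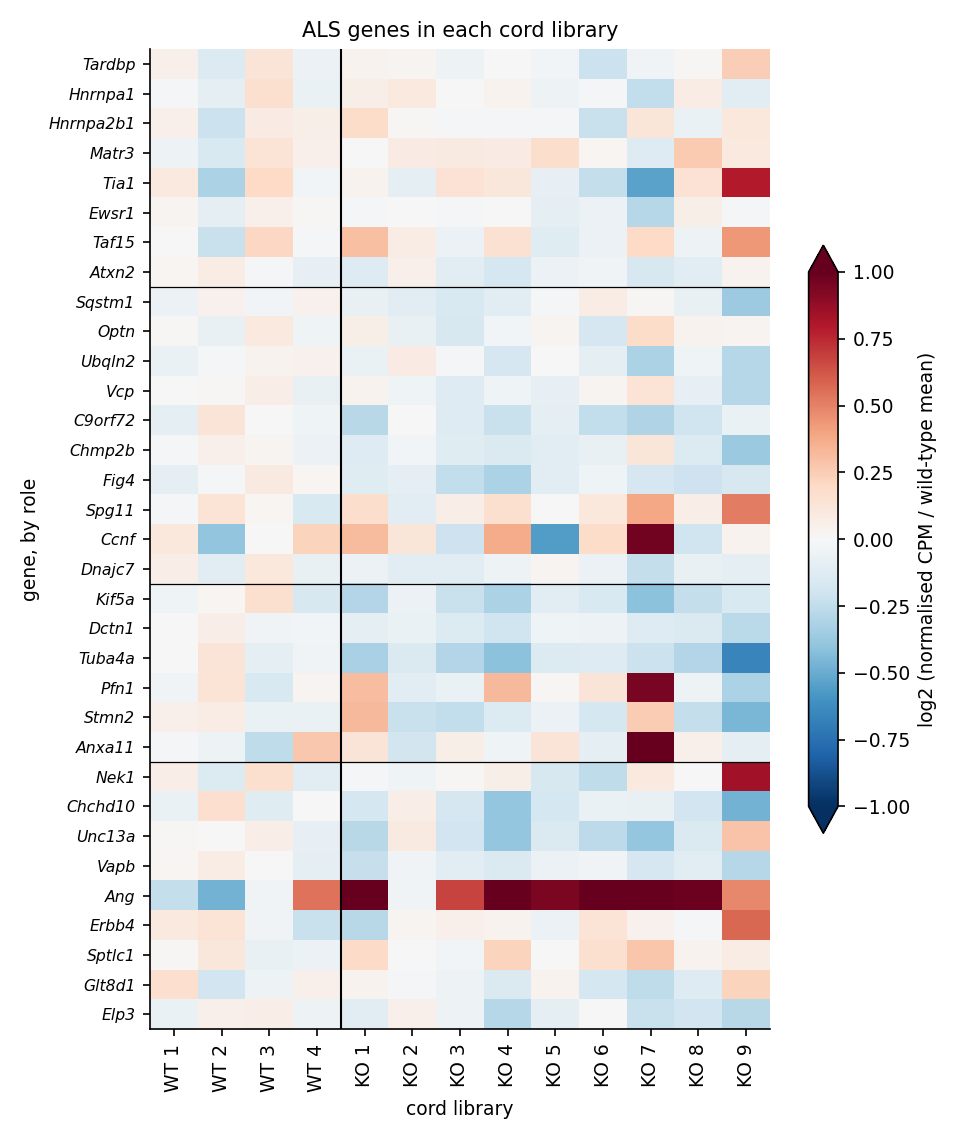
Log2 of normalised CPM over the wild-type mean for each ALS gene (rows, by role, in the order RNA-binding, autophagy and quality control, transport and cytoskeleton, other) in 4 wild-type (WT) and 9 knockout (KO) cords; colours saturate at 1 in either direction. Single strong cells fall in KO 7 (Pfn1, Anxa11, Ccnf) and KO 9 (Tia1, Nek1, Erbb4), while Ang is high across most knockout cords.

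Other genes of the same processes were read from lists beside the ALS genes, here and in the cultures. The lists were chosen with earlier results of these data known and use the same libraries. They describe the processes and give no separate support for the values of the ALS genes. Of 47 further axonal transport genes, 38 had a log2 fold change below 0 in cords, with a median of −0.108, 14 were lower at an unadjusted p below 0.05 and none was higher. Over all tested genes 46.9% were below 0, and 6.8% were lower and 7.53% higher at such a p. The kinesin light chain gene Klc1 (829 ± 30.3 normalised CPM, n = 4, and 722 ± 38.1, n = 9; log2 −0.20, SE 0.05, edgeR adjusted p = 0.292, DESeq2 0.0142) and the dynactin gene Dctn3 (61.2 ± 1.47 and 52.9 ± 4.78; log2 −0.21, SE 0.07, edgeR adjusted p = 0.292) were below every wild-type cord in 9 of 9 knockout cords on the normalised CPM scale. Of 48 further autophagy and endolysosomal genes, 34 were below 0 (median −0.053), with Atg101, of the autophagy initiation complex, at −0.27 (SE 0.09) and Map1lc3a, an autophagosome membrane protein, at −0.21 (SE 0.08), each at an edgeR adjusted p of 0.292 and 0.297. Of 36 further RNA-binding genes, 15 were below 0 (median 0.022), with the neuronal gene Elavl3 at −0.16 (SE 0.05, edgeR adjusted p = 0.292) and Fxr2 at −0.13 (SE 0.05, edgeR adjusted p = 0.319). edgeR called none of the genes of the 3 lists.

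Markers of neurons were lower beside the transport genes. All 5 neuron markers had a negative log2 fold change in cords (median −0.252), and their summed TPM was 2762 to 3733 in wild-type and 2429 to 3189 in knockout cords. All 5 oligodendrocyte markers were negative too (median −0.219), at 4918 to 7154 and 4792 to 7308 TPM summed, and the 6 motor neuron markers had 4 negative values (median −0.231), at 284 to 359 and 226 to 572 TPM. Their part in the values of Tuba4a, Kif5a and Dctn1 was not tested.

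The LNA comparison asked how the same genes stand in motor neurons after 72 h with miR-146a LNA. The level of miR-146a was not measured here, and Mir146 had 0 counts in both culture groups. Here 4 of the 33 genes passed the edgeR test (adjusted p below 0.05): Nek1, Elp3 and Vcp fell, and Chchd10 rose, each by less than 1.5-fold. Of all 19099 tested genes 8.56% passed (2.4% higher, 6.16% lower), so 4 of 33 is near the background share. DESeq2 called 7 of 33 and 11.4% of all genes, adding Spg11, Tuba4a and Unc13a. Limma called 6 of 33 and 11.8% of all genes. Scaling by total count alone moved the split over all genes from 458 higher and 1177 lower to 741 higher and 831 lower, and left 3 of the 4 ALS genes called, without Vcp.

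Nek1 had the smallest p. It stood at 142, 141 and 141 normalised CPM in the control cultures and at 109, 115 and 119.8 after miR-146a LNA. The groups did not overlap, and the lower group was 0.813 times the control (log2 −0.30, SE 0.05, edgeR adjusted p = 0.00148). Its call held in every alternative fit that was run.

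Elp3, whose complex modifies transfer RNA, stood at 169, 162 and 167 normalised CPM and at 145, 144 and 142 after miR-146a LNA. The groups did not overlap (log2 −0.21, SE 0.05, edgeR adjusted p = 0.0116). Without control replicate 1 or 3 the adjusted p was 0.0627 and 0.0534.

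Vcp was the called gene of protein quality control and the most abundant of the 4. It had 773, 779 and 794 normalised CPM in control cultures and 707, 718 and 659 after miR-146a LNA. The groups did not overlap (log2 −0.17, SE 0.05, edgeR adjusted p = 0.0304). Its call was lost under scaling by total count alone (−0.13, adjusted p = 0.0921) and without miR-146a LNA replicate 1 (adjusted p = 0.0599) or any of control replicates 1, 2 and 3 (0.0782, 0.128 and 0.117).

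Chchd10, a protein of the mitochondrial intermembrane space, stood at 29.2, 31.6 and 30.6 normalised CPM in control cultures and at 38.8, 34.5 and 42.0 after miR-146a LNA. All 3 treated cultures lay above all controls (log2 0.34, SE 0.08, edgeR adjusted p = 0.0142). Without control replicate 1 or 3 the adjusted p was 0.0698 and 0.0534. Chchd10 (chromosome 10, 75933130 to 75937747, plus strand) overlaps Mmp11 on the other strand, which had 51.9 ± 3.07 and 59.0 ± 4.63 normalised CPM (SD, n = 3 per group), and since the strand setting of the counting is not given in the sources used here, reads of the 2 genes cannot be told apart with certainty.

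**Figure D4:**
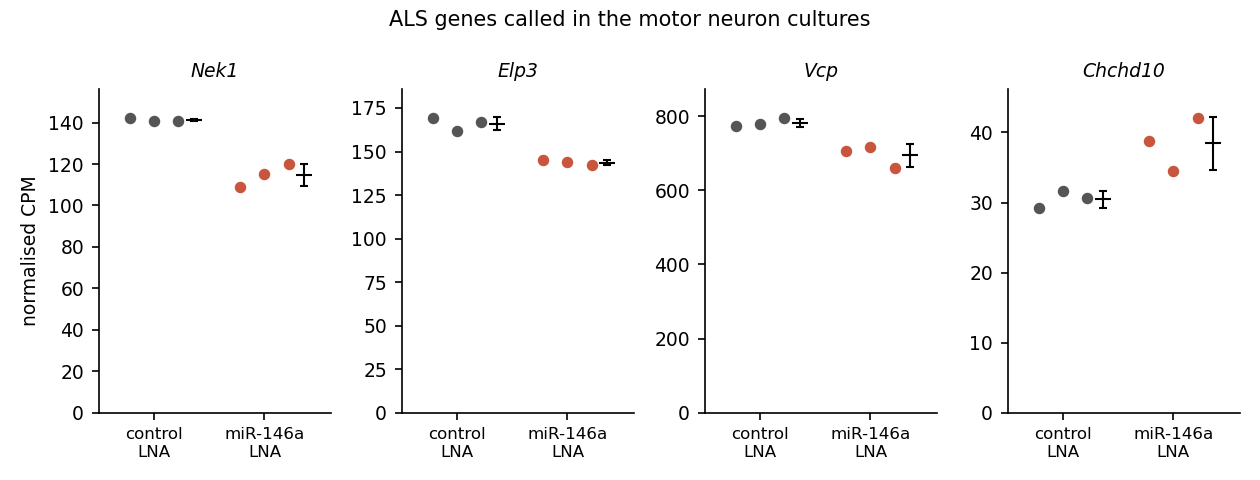
Normalised CPM of the 4 ALS genes with an edgeR adjusted p below 0.05 in 3 control LNA and 3 miR-146a LNA cultures, 1 point per library, with the mean and SD beside each group; all axes start at 0. Nek1, Elp3 and Vcp lie lower and Chchd10 higher after miR-146a LNA, with no overlap.

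Groups that did not overlap were frequent in the cultures: 5 ALS genes were higher and 10 lower in all 3 treated libraries, where 12.8% and 15.1% of all genes were, 28.0% in either direction. Single libraries weighed on these counts. Without control replicate 1, or without control replicate 3, edgeR called 1 ALS gene, Nek1. Calls over all genes fell too, from 458 higher and 1177 lower of 19099. They were 255 higher and 804 lower of 19753 without control replicate 1, and 238 higher and 878 lower of 20006 without control replicate 3. The miR-146a LNA replicate 3 was the highest or lowest culture at 6 and 11 of the 33 genes, beside 24.6% and 23.9% of all genes.

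The 8 RNA-binding genes all had a log2 fold change below 0 in cultures, where 48.5% of all tested genes did, with a median of −0.096 beside 0.008, and none was called. Scaling by total count alone turned Tardbp to 0.01 and Hnrnpa2b1 to 0.04, which left 6 of 8 below 0. Taf15, at 8.33 to 9.06 and 6.33 to 7.62 normalised CPM, had the largest size, −0.30 (SE 0.13, edgeR adjusted p = 0.174). Hnrnpa1, at 165 to 170 and 148 to 158, had −0.12 (SE 0.05, edgeR adjusted p = 0.148). Matr3, at 273 to 278 and 253 to 273, had −0.07. On unrounded values the groups of Taf15, Hnrnpa1 and Matr3 did not overlap. The other values were −0.13 for Tia1, −0.10 for Atxn2, −0.09 for Ewsr1, −0.04 for Tardbp and −0.00 for Hnrnpa2b1.

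Autophagy and quality control genes split in sign, with 4 of the 10 below 0, Vcp among them. Spg11 was at 78.0, 76.3 and 81.5 normalised CPM and at 70.8, 70.7 and 66.5 after miR-146a LNA (log2 −0.18, SE 0.06, edgeR adjusted p = 0.0682, DESeq2 0.0447). Ubqln2, at 66.1 to 67.9 and 57.9 to 62.4, had −0.17 (SE 0.06, edgeR adjusted p = 0.0978). Neither gene's groups overlapped. C9orf72 (0.10) and Dnajc7 (0.09) were higher in all 3 treated libraries without passing. Sqstm1 had 0.08 (SE 0.05, edgeR adjusted p = 0.352) and passed without miR-146a LNA replicate 3 (0.13, adjusted p = 0.0161) and with limma (adjusted p = 0.0327). Optn, Fig4 and Ccnf had 0.02 each and Chmp2b −0.02.

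In transport, edgeR called none of the 6 genes in the cultures, and DESeq2 called Tuba4a. Kif5a was at 1611, 1579.8 and 1615 normalised CPM and at 1620.1, 1624 and 1503 after miR-146a LNA (log2 −0.02, SE 0.05, edgeR adjusted p = 0.860), and Dctn1 had 0.02 (SE 0.05, edgeR adjusted p = 0.826). Tuba4a had 47.9, 40.2 and 43.1 in controls and 63.7, 48.3 and 48.2 after miR-146a LNA. The groups did not overlap, with treated replicate 1 far above the others (log2 0.29, SE 0.10, edgeR adjusted p = 0.115, DESeq2 0.0390). Stk16, which overlaps Tuba4a on the other strand, had 75.2 ± 2.24 and 75.5 ± 3.17 normalised CPM (SD, n = 3 per group). Reads of these 2 genes cannot be told apart with certainty. Pfn1 had 0.11 (SE 0.05, edgeR adjusted p = 0.202), Stmn2 −0.01 (SE 0.05), and Anxa11 0.40 (SE 0.57) from 41 and 52 counts.

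Among the genes of other roles, Unc13a, which readies synaptic vesicles for release, was at 162, 154 and 149 normalised CPM and at 144, 139.9 and 125 after miR-146a LNA, without overlap (log2 −0.18, SE 0.06, edgeR adjusted p = 0.0623, DESeq2 0.0496). Vapb was at 118 to 125 and 103 to 115 (log2 −0.14, SE 0.06, edgeR adjusted p = 0.149, limma 0.0486). Ang, at 1.32 to 1.88 and 1.44 to 2.18, had 0.17 (SE 0.26, edgeR adjusted p = 0.761), Erbb4 0.30 (SE 0.33) from 157 and 192 counts, Sptlc1 −0.12 (SE 0.09) and Glt8d1 0.01 (SE 0.08). Ang had no call in the cultures by any of the 3 tools, while its neighbour Rnase4 rose by a log2 of 0.22 (SE 0.06, edgeR adjusted p = 0.0400), with 44.6 ± 1.53 normalised CPM in controls and 52.0 ± 1.48 in treated cultures (SD, n = 3).

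**Figure D5:**
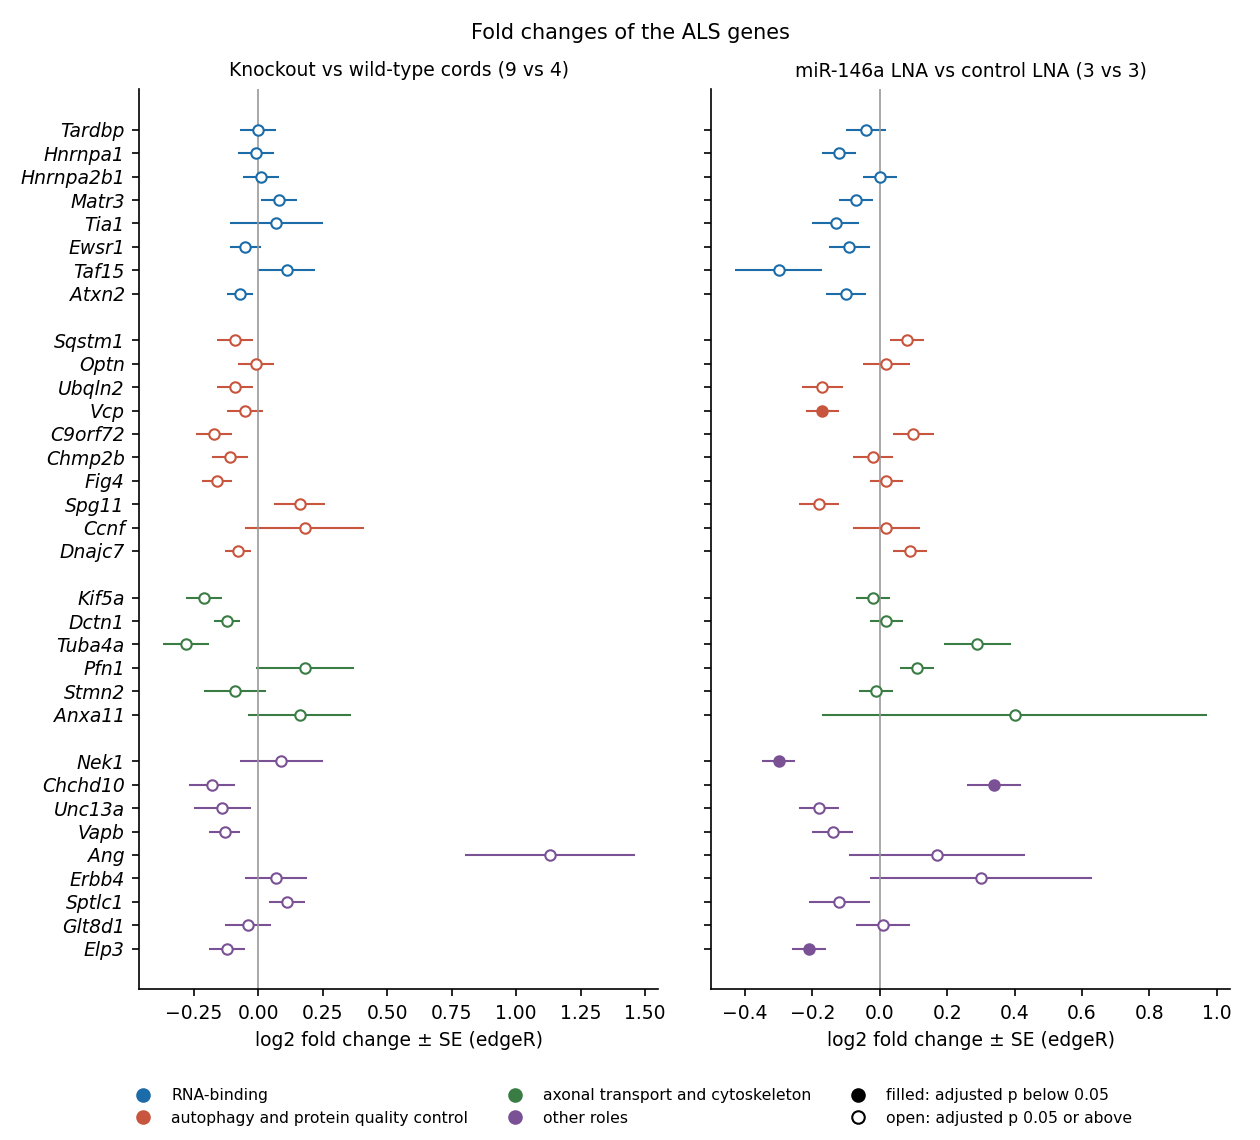
Log2 fold change from edgeR for the 33 ALS genes, by role (colours), with a standard error derived from the F statistic of its test. Knockout against wild-type cords are on the left and miR-146a LNA against control LNA cultures on the right. The x axes differ in range. Filled points, with an adjusted p below 0.05, are Vcp, Nek1, Chchd10 and Elp3 in the cultures, and there is none in the cords, where Ang lies farthest from 0.

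In the lists of related genes the edgeR calls in the cultures were all lower, beside 6.16% of all genes called lower and 2.4% higher. The counts were near that share in autophagy (3 of 48) and RNA binding (3 of 36), and 6 of 47 in transport; no test compared them with it. Of 47 further transport genes 6 fell, among them Trak2, a mitochondrial motor adaptor (mean 57.1 ± 2.69 and 45.2 ± 2.55 normalised CPM, with n = 3 in each group, log2 −0.34, SE 0.07, edgeR adjusted p = 0.00398), and Map1b, a microtubule-associated protein (2627 ± 189.6 to 2085 ± 16.4; log2 −0.33, SE 0.05, edgeR adjusted p = 0.000408). Kif5c, a paralog of Kif5a named after its values were seen, also fell (log2 −0.29, SE 0.04, edgeR adjusted p = 0.000285). Of 48 further autophagy genes 3 fell, with Uvrag (44.3 ± 2.17 to 37.3 ± 1.19; log2 −0.25, SE 0.07, edgeR adjusted p = 0.0329) and Rb1cc1, of the autophagy initiation complex (246 ± 4.83 to 213 ± 10.5; log2 −0.21, SE 0.05, edgeR adjusted p = 0.0142), leading. Of 36 further RNA-binding genes 3 fell, with Hnrnpul1 (91.6 ± 3.18 to 76.1 ± 0.82; log2 −0.27, SE 0.06, edgeR adjusted p = 0.00517) and Elavl3 (55.5 ± 0.658 to 47.9 ± 1.11; log2 −0.21, SE 0.06, edgeR adjusted p = 0.0381) leading. Summed TPM of 4 neural progenitor markers was 33.8 to 39.0 in controls and 42.1 to 49.6 after miR-146a LNA, without overlap. Nes carried that sum (29.6 ± 2.09 and 39.2 ± 4.02 TPM), while Sox2 (4.87 ± 0.415 and 3.96 ± 0.177) and Pax6 (0.701 ± 0.188 and 0.51 ± 0.0642) had lower means after miR-146a LNA, and 2 of the 4 log2 fold changes were below 0 (median −0.032). The part of such cells in these values was not tested.

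Whether the knockout and LNA effects differ was tested as an interaction in 1 fit over all 19 libraries. That fit used 1 estimate of spread per gene for both materials, whose spreads differ. The median SD as a share of the mean over all tested genes was 11.6% in wild-type and 19.1% in knockout cords. It was 7.99% in control and 10.3% in treated cultures, and the p-values carry that limit. edgeR called 0 of 33 ALS genes and 1.75% of 24152 genes. The smallest p were those of Tuba4a, with a knockout effect lower than the LNA effect by a log2 difference of −0.54 (SE 0.15, edgeR adjusted p = 0.0784, DESeq2 0.0365, limma 0.0136), and Chchd10 at −0.49 (SE 0.14, edgeR adjusted p = 0.0896, DESeq2 0.0384, limma 0.0378). These 2 genes passed with DESeq2 (3.79% of all genes) and limma (4.04%), and edgeR called 2 ALS genes without the library labelled knockout replicate 9. Across the 33 genes, 11 had a negative log2 fold change in both materials, 5 a positive one in both, 9 were negative in cords and positive in cultures, and 8 the reverse.

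Of the 5 genes with a seed match, edgeR and DESeq2 called none in the cultures and limma called Vapb (adjusted p = 0.0486). With so few genes of either kind, the overlap of match and call says nothing about the match. In cords their median log2 fold change was 0.074 and that of the other 28 genes −0.061, beside 0.022 and −0.002 over all tested genes with and without a match. In cultures the medians were −0.069 and −0.007, beside −0.058 and −0.011 over all. Vapb, with the site printed above, was lower in both materials without passing the edgeR test, and Tardbp, Tia1, Matr3 and Erbb4 had an edgeR adjusted p of at least 0.272 in each.

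The spread between libraries of a group was read last. The median coefficient of variation of their normalised CPM was 6.71% in wild-type cords (11.6% over all tested genes), 8.44% in knockout cords (19.1%), 3.23% in control cultures (7.99%) and 6.04% after miR-146a LNA (10.3%). Ang had the widest spread in cords, 32.2% in wild-type and 40.2% in knockout libraries, and Anxa11 in cultures, 53.6% and 44.4%. These 2 are also among the genes with the fewest counts.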

How the data were processed

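Total RNA of 13 mouse cord and 6 motor neuron libraries was depleted of ribosomal RNA and sequenced, per the labels' protocols. Reads were aligned to GRCm38 with STAR and counted with featureCounts, per the submitters' processing notes; neither strand setting nor duplicate handling is given in those sources. The authors deposited whole-number counts of uniquely aligned reads per gene, used in all tests. CPM were made by the authors from the counts divided by the library total, per the file headers, and were checked against them. FPKM were made by the authors by dividing also by gene length, per the file headers, and were not used. TPM were made by the authors from length-divided counts rescaled in each library, per the file headers, and served for levels. Symbols came from GENCODE M21 (55141 of 55487 genes, 99.4%), which matches the build.

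Groups follow the genotype and LNA labels; cord replicate numbers follow accession order. edgeR 4.0.16 in R 4.3.3 (robust quasi-likelihood test, TMM scaling, its default filter on low counts, Benjamini-Hochberg adjustment over all tested genes, threshold 0.05) was fitted to each comparison, and over 19 libraries for the interaction. The procedure was tested on simulated data. The SE of a log2 fold change was derived as its absolute value over the square root of the edgeR F statistic, since the test gives none. Normalised CPM are TMM-scaled within a material. Alternatives were limma 3.58.1 (voom, quality weights), DESeq2 1.42.0, other scalings, no filter, a replicate block and leaving out libraries. In the cultures, the correlations of same-numbered libraries were 0.010, −0.050 and 0.006, so no strong shared deviation was seen. With 3 libraries per group this cannot exclude a shared culture or batch, and the labels do not say. Replicate libraries all differed by more than counting noise (lowest chi-square per degree of freedom 6.03).

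A count of 3 equals 0.0758 to 0.1065 CPM in a cord library and 0.0458 to 0.0738 in a culture library, for counting error only. The ALS genes and the other lists were chosen with earlier results of these data known. All 33 are named; values of each library or the range were given for those with a call, the 3 smallest p of a comparison or an outlying library, and of each further list the 2 called genes with the largest fold change (or, with none called, the 2 of smallest p).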

Additional observations from a re-analysis of the deposited data

Results flagged for a closer look

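In 9 of 66 groups of cord values (33 genes in wild-type and in knockout cords), 1 extreme library was above the 95% limit of Dixon's test. The test takes the gap between that library and the next as a share of the group's range. For a single group chance alone gives about 1 in 20, but the 66 groups share the same libraries. The flagged share over all tested genes was not computed, so 9 of 66 cannot be called particular to ALS genes. The library labelled knockout replicate 9 was the outlying highest at Tardbp (91.8 normalised CPM), Tia1 (54.7), Nek1 (48.5) and Erbb4 (89.7). Knockout replicate 7 was the outlying highest at Ccnf (5.03), Pfn1 (267) and Anxa11 (15.6), and the outlying lowest at Ewsr1 (139). Wild-type replicate 2 was the outlying lowest at Hnrnpa2b1 (169). Thus 8 of the 9 fell in the 2 cord libraries that also stood apart at Sod1 and Pttg1 or at muscle markers.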

How the results depend on the processing

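In cords, the count of ALS genes called was 0 in every fit run except DESeq2 (1), also on leaving out each library (0 to 0). All genes called numbered 381 with DESeq2, 3 with limma, 8 without knockout replicates 7 and 9, and 0 to 2 on leaving out 1 library. ALS genes at an unadjusted p below 0.05 numbered 4 to 9 on leaving out 1 library. The 4 came without wild-type replicate 2, where 1083 of all 22756 genes were higher and 859 lower at such a p. The 9 came without knockout replicate 2, where 2023 of all 22048 genes were higher and 1820 lower. In cultures, ALS genes called numbered 7 with DESeq2 and 1 to 5, and all genes 778 to 1985, on leaving out 1 library. For the interaction, ALS genes called numbered 2 under scaling by total count alone, DESeq2, limma and without knockout replicates 7 and 9, and 0 to 2 on leaving out 1 library; all genes numbered 268 without a filter, 916 with DESeq2, 976 with limma, 958 without both replicates, and 214 to 621 on leaving out 1 library. The cause of these shifts was not tested. Leaving out each library for the interaction, its other fits over all genes and the fits of the unadjusted count were chosen after seeing the data.

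Log2 fold changes near 0 changed sign. In cords these were Tardbp (−0.010 without a filter, −0.038 with limma, −0.018 without replicates 7 and 9), Hnrnpa1 (0.012 by total count, 0.010 with limma, 0.044 without both), Hnrnpa2b1 (−0.028 with limma, −0.005 without both), Optn (0.016 by total count, 0.001 with relative log expression factors and with DESeq2), Ccnf (−0.004 with limma) and Nek1 (−0.043 with limma, −0.044 without both). In cultures, total count alone gave Tardbp 0.007, Hnrnpa2b1 0.043, Chmp2b 0.025, Kif5a 0.027 and Stmn2 0.036; Hnrnpa2b1 was 0.001 with relative log expression factors and with DESeq2 and 0.003 without a filter; limma gave Kif5a 0.005 and Glt8d1 −0.002. On leaving out 1 cord the ranges were −0.045 to 0.043 for Tardbp, −0.047 to 0.044 for Hnrnpa1, −0.057 to 0.039 for Hnrnpa2b1, −0.046 to 0.14 for Tia1, −0.035 to 0.023 for Optn, −0.036 to 0.15 for Nek1, −0.002 to 0.12 for Erbb4 and −0.11 to 0.024 for Glt8d1. On leaving out 1 culture they were −0.034 to 0.044 for Hnrnpa2b1, −0.041 to 0.076 for Optn, −0.094 to 0.028 for Chmp2b, −0.061 to 0.099 for Ccnf, −0.038 to 0.018 for Kif5a, −0.005 to 0.074 for Dctn1, −0.061 to 0.020 for Stmn2, −0.033 to 0.32 for Ang and −0.038 to 0.082 for Glt8d1. Of the other values from alternatives that left out no single library, 361 kept their direction and call, 10 gained the call and 1 lost it; on leaving out 1 library, 585 kept both, 1 gained and 8 lost the call. With a replicate block in the cultures, 6 ALS genes passed edgeR in place of 4, with Tuba4a (adjusted p = 0.0147) and Unc13a (0.0435) added. Calls over all 19099 genes rose too, from 458 higher and 1177 lower to 552 higher and 1241 lower. No library correlated best with its own number. Depth limits Anxa11 and Erbb4 in cultures and Ang in cords.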
